A study of Mus musculus with 43 samples.

Results

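The glutathione S-transferases of the mu class are represented in the mouse by the genes Gstm1 to Gstm7. The array held 12 probe sets annotated to these 7 genes, of 45007 probe sets tested and 18184 genes, and all 12 were kept without a filter on low values. Gstm1 had 4 probe sets, Gstm3 and Gstm7 had 2 each, and Gstm2, Gstm4, Gstm5 and Gstm6 had 1 each. The family was selected on results of these arrays, chosen by lower signals of several members in ovaries without Foxl2 or Wnt4, so that its values after loss of either gene are given as a description without a test. Tests are given for testis against ovary, for the Kit mutant and for development, which share arrays with the contrasts that guided the selection.

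Glutathione S-transferases are cytosolic enzymes that join the tripeptide glutathione to reactive, electrophilic compounds and so make them soluble and ready for export. Mu-class subunits form dimers, and several mu-class genes are known in rodent liver as inducible detoxification genes under control of the antioxidant factor Nrf2. Foxl2 encodes a forkhead factor needed by the supporting cells around oocytes, Wnt4 a secreted signalling protein of the early ovary, and Kit the receptor on which germ cells depend.

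Transcripts were measured in whole gonads of 43 mice, 1 mouse per Affymetrix array, in 15 groups of 3 arrays, except for the 2 arrays of each E15 group. Foxl2-/- ovaries were taken at embryonic days 13 and 16 (E13, E16) and at birth (P0), Foxl2+/- ovaries at E16, and ovaries whose labels name no mutation at E16 and P0. The E13 control ovaries are Foxl2+/- by label, whereas the study's methods speak of wild-type littermates, so they are called control here. Wnt4-null ovaries of E15 were set against Wnt4+/- ovaries, both on a strain mixture different from the other groups. At P0, Wnt4-/- Foxl2-/- ovaries were set against Wnt4-/- Foxl2+/- ovaries, and KitWvWv Foxl2-/- ovaries against KitWvWv Foxl2+/- ovaries, so that both of these references carry 1 Foxl2 null allele and differ in that from the wild-type ovaries. KitWvWv is a hypomorphic genotype in which few germ cells remain. Testes were taken at E13 and P0. By the study's methods the P0 testes came from Wnt4-null mice. Neither sex nor stage can be told apart from loss of Wnt4 in them. In whole organs, fewer cells of a type and less RNA per cell cannot be told apart either.

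Signals are given as multiples of the mean intensity that all arrays share, and differences are log2 differences after adding 1% of that mean. The values are relative within 1 probe set, and probe sets were not set against each other. A bright Foxl2 probe set lay between 0.606 and 7.64 in the Foxl2-/- groups, against 5.13 to 32.6 in the ovary groups that carry a Foxl2 allele; another Foxl2 probe set lay at 0.00635 or lower in every Foxl2-/- array. A Wnt4 probe set lay between 0.164 and 0.414 in the Wnt4-null ovaries and P0 testes and at 0.581 or higher in the other ovary groups. Pearson correlations between arrays of 1 group were 0.922 to 0.982, lowest in the Foxl2-null ovaries of E13. Summed Sertoli-cell markers (16 genes) reached 50.2 to 86.0 in testes, against 7.30 to 18.98 in ovaries that had a Wnt4 allele.

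In the RefSeq gene order the 7 genes follow each other on chromosome 3 as Gstm5, Gstm7, Gstm6, Gstm3, Gstm2, Gstm1 and Gstm4, with 0 other protein-coding genes between them. RefSeq promoter windows of 300 bases (250 before and 50 after an annotated start) were available for all 7 genes, 12 windows in all. Windows of 1 gene can overlap. Gstm1 and Gstm7 have 2 windows each and Gstm6 has 3. Of these, the window furthest downstream is shown for Gstm1 and Gstm7, and the one furthest upstream for Gstm6. The windows of Gstm1, Gstm6 and Gstm7, on which the results turn, and of Gstm3, whose pattern was unlike theirs, are shown 5′ to 3′ on the minus strand of build GRCm38.p6. Capitals mark the TATA motif TATAAA (Gstm1), the antioxidant response element core TGACNNNGC (Gstm7), the TCF/LEF core CTTTGAA (Gstm3, here as its reverse complement) and a stretch of 16 bases that the Gstm1 and Gstm3 windows share.
Gstm1 chr3:108017769-108018068: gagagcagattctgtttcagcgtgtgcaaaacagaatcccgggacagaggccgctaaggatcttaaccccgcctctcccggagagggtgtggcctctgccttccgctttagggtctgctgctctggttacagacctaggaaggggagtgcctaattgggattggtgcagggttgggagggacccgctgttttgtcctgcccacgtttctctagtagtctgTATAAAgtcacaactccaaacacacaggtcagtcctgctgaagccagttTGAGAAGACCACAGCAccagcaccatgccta
Gstm6 chr3:107953417-107953716: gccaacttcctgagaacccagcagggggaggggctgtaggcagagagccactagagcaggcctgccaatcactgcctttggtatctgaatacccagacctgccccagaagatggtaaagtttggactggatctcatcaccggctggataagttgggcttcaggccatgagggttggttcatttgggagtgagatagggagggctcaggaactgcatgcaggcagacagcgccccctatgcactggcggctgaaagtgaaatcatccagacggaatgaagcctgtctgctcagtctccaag
Gstm7 chr3:107931565-107931864: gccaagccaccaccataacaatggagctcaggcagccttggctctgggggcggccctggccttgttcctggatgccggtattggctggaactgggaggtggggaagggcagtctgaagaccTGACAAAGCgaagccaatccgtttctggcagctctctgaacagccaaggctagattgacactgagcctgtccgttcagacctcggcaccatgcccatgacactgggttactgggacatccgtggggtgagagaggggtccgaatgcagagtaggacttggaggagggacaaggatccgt
Gstm3 chr3:107969125-107969424: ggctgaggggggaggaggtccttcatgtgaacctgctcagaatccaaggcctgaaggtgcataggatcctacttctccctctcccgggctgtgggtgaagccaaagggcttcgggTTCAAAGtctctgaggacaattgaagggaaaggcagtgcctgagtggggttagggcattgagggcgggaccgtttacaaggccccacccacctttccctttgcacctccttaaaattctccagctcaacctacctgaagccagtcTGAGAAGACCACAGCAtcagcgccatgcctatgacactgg

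Both strands were searched. The forkhead core TGTTTAC was found in 0 of the 12 windows and in 3.65% of all 32851 RefSeq windows of this length. The antioxidant response element core was found in 2 windows, of Gstm5 and Gstm7, and in 12.4% of all windows. The TCF/LEF core was found in 1 window (Gstm3; 5.14% of all), and the NR5A1 site CAAGGTCA in 0 (1.56% of all). The TATA motif, added after the windows had been seen, was found in 3 windows, of Gstm1, Gstm5 and Gstm7, and in 13.6% of all. These matches describe letters in these windows only.

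Some of the probe sets can share signal. Of the Gstm1 probe sets 2, among them the brightest, have names ending in _x_at, and the brighter Gstm3 probe set has one ending in _s_at, which mark probes that can bind related transcripts. An older annotation used by the study lists 1 of the _x_at probe sets for Gstm1 and for another locus. What other members add to these signals was not tested. The 2 brightest Gstm1 probe sets, of which 1 has no such ending, followed each other at r = 0.991 within groups (43 arrays). The Gstm7 probe sets followed each other at only r = 0.091 within groups. Values are those of the brightest probe set of a gene unless the dimmer one is named. Over the 15 group means, Gstm2 followed Gstm1 (r = 0.913) and Gstm6 (r = 0.880), and Gstm6 followed Gstm1 (r = 0.869). Gstm7 followed Gstm1 less closely (r = 0.352), and Gstm3, Gstm4 and Gstm5 had r between -0.343 and 0.228 with Gstm1. These are correlations over groups that share genotypes and stages and are given without a test.

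Gstm1, a major mu-class subunit, lay lower in Foxl2-null than in wild-type ovaries at E16 and P0. Its signals in Foxl2-null ovaries were 2.39, 4.39 and 5.58 at E13, against 4.51, 4.60 and 5.30 in control ovaries. At E16 they were 4.71, 3.71 and 4.75 in Foxl2-null ovaries, 5.23, 7.83 and 7.45 in Foxl2+/- ovaries, and 7.39, 7.51 and 9.01 in wild-type ovaries. At P0 they were 7.14, 7.70 and 6.70 in Foxl2-null ovaries, against 11.5, 8.70 and 12.9 in wild-type ovaries. All Foxl2-null arrays lay below all wild-type arrays at E16 and at P0. The groups overlapped at E13, where 1 null array (replicate 1) lay apart. Of all probe sets, 9.97% lay lower without overlap at E16 and 6.9% at P0 (15.7% and 11.8% either way). The log2 differences were -0.30 ± 0.19 at E13, -0.86 ± 0.19 at E16 and -0.60 ± 0.19 at P0 (SE). At E13 the value was 0.047 without null replicate 1.

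Gstm7, a further mu-class transferase, showed the same order. Its signals in Foxl2-null ovaries were 1.34, 1.40 and 1.95 at E13, against 1.84, 2.06 and 2.23 in control ovaries. At E16 they were 1.23, 1.15 and 0.977 in Foxl2-null ovaries, 1.98, 2.22 and 2.55 in Foxl2+/- ovaries, and 3.05, 2.52 and 2.70 in wild-type ovaries. At P0 they were 0.453, 0.589 and 0.533 in Foxl2-null ovaries, against 1.09, 0.820 and 1.17 in wild-type ovaries. Null and wild-type arrays did not overlap at E16 or P0, and the log2 differences were -0.40 ± 0.17, -1.30 ± 0.17 and -0.95 ± 0.17 at the 3 stages. Foxl2-null ovaries thus held 40.7% of the wild-type level at E16 and 51.9% at P0.

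Gstm6, which lies next to Gstm7, differed by more than Gstm1 and Gstm7 at E13 and E16, with a wide spread among replicates. At E13 its signals were 0.0291, 0.119 and 0.0872 in Foxl2-null ovaries, against 0.111, 0.497 and 0.248 in control ovaries. At E16 they were 0.178, 0.184 and 0.162 in Foxl2-null ovaries, 0.795, 0.826 and 1.16 in Foxl2+/- ovaries, and 1.27, 2.003 and 0.977 in wild-type ovaries. At P0 they were 0.597, 0.851 and 0.745 in Foxl2-null ovaries, against 2.32, 0.343 and 1.21 in wild-type ovaries. The E16 groups were far apart, with a log2 difference of -2.89 ± 0.46, that is 13.5% of the wild-type level. The difference was -1.67 ± 0.46 at E13 and -0.45 ± 0.46 at P0, where wild-type replicate 2 lay below all null arrays; without that array the P0 value was -1.20, and without wild-type replicate 1 it was 0.161.

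**Figure D1:**
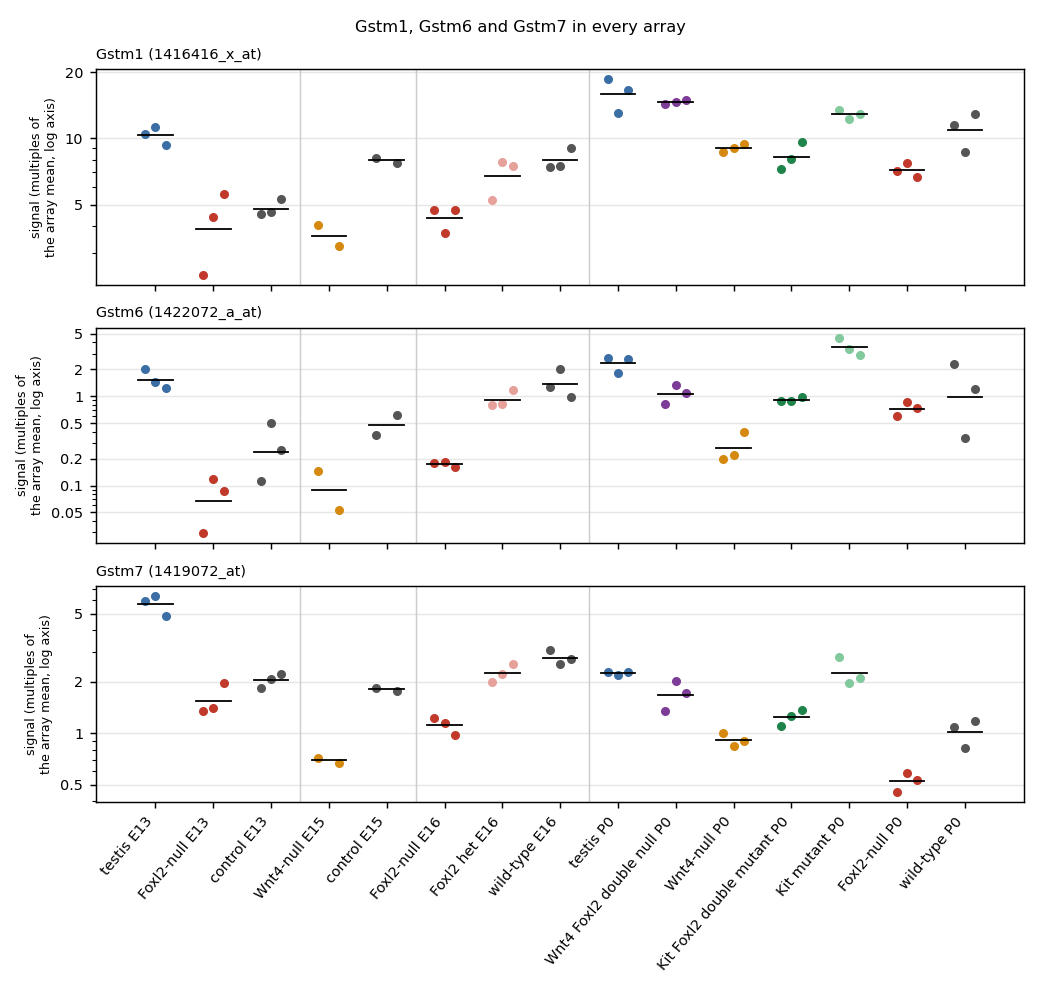
Signal of Gstm1, Gstm6 and Gstm7 in each of the 43 arrays (points, multiples of the mean shared by all arrays, log axes), by group, with the mean of log2 values as a bar. Foxl2-null ovaries lie below wild-type ovaries at E16 in all 3 genes, and double null ovaries at P0 lie above Wnt4-null ovaries.

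Gstm2, the mu-class gene next to Gstm1, had log2 differences of -0.29 ± 0.18, -0.24 ± 0.18 and -0.04 ± 0.18 at E13, E16 and P0. Its signals at E16 were 10.02, 8.51 and 9.52 in Foxl2-null ovaries, against 10.6, 11.1 and 11.3 in wild-type ovaries, without overlap. Gstm5, Gstm4 and the dimmer Gstm7 probe set had log2 differences between -0.51 and 0.01 over the 3 stages, with overlapping arrays throughout. Gstm3 was at 0.29 ± 0.49, 0.15 ± 0.49 and 0.88 ± 0.49. The genes with the lower signals, Gstm1, Gstm6 and Gstm7, are not all neighbours, since Gstm3 and Gstm2 lie between Gstm6 and Gstm1.

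Counted over the 12 probe sets, 1 was called lower at E13, 4 at E16 and 1 at P0 (limma, Benjamini-Hochberg adjusted p under 0.05), and 0 higher. Of all probe sets, 1.6%, 0.171% and 0.451% were called lower at these stages, 0.467%, 0.236% and 0.153% higher, and 2.06%, 0.407% and 0.604% in either direction. Of all calls at E13, 22.6% were higher, and 36.1% after quantile normalization. The selection of the family used these comparisons, and nothing is read from the counts. With the replicate block, which treats arrays of equal number as pairs, 0 of 12 were called at E13, 5 at E16 and 0 at P0. The compared arrays alone gave the same 3 counts. Of all 45007 probe sets, 192, 386 and 18 were called with the block, and 3, 360 and 95 with the compared arrays alone. The median log2 difference of the 12 probe sets was -0.30, -0.57 and -0.51, against 0.01, -0.07 and -0.03 over all probe sets. Of the 12, 4 belong to Gstm1, so this median and the counts weigh that gene more than the others. Averaged over the 3 stages, 5 were called lower and 0 higher (1.04% of all lower, 0.493% higher, 1.54% either way), with Gstm1 at -0.59 ± 0.11, Gstm6 at -1.67 ± 0.27 and Gstm7 at -0.88 ± 0.10; of all calls 32.1% were higher, and 43.5% after quantile normalization. In Foxl2+/- ovaries 0 of 12 were called (0.00444% of all higher, 0.00222% lower, 0.00667% either way; 0 of 12 also at an unadjusted p under 0.05), and Gstm1, Gstm6 and Gstm7 were at -0.24 ± 0.19, -0.56 ± 0.46 and -0.30 ± 0.17, each between the null value and 0. Summed fetal ovary somatic markers (15 genes, among them Foxl2 and Wnt4) were at 41.6 to 50.85 in Foxl2-null ovaries of E16, against 61.6 to 66.5 in wild-type ovaries. The bright Foxl2 probe set in this sum was at 2.03 to 2.77, against 14.5 to 16.5. The sum was thus lower in part by construction. Summed erythroid markers (8 genes) also differed at E16, with 8.48 to 31.8 in Foxl2-null ovaries, against 1.45 to 8.10 in wild-type ovaries, and striated muscle markers reached 15.6 in 1 Foxl2-null array of E13, against at most 2.53 in controls. Their part in the Gstm values was not tested.

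Loss of Wnt4 went with lower signals of Gstm1, Gstm2, Gstm6 and Gstm7 at E15. Gstm1 was 4.02 and 3.22 in Wnt4-null ovaries, against 8.14 and 7.76 in Wnt4+/- ovaries. Gstm7 was 0.720 and 0.670 in Wnt4-null ovaries, against 1.84 and 1.77 in Wnt4+/- ovaries. Gstm6 was 0.146 and 0.0534 in Wnt4-null ovaries, against 0.367 and 0.619 in Wnt4+/- ovaries. Unlike after loss of Foxl2 at E16, where it stayed at 84.5% of the wild-type level, Gstm2 was also far lower, at 6.26 and 6.04 in Wnt4-null ovaries, against 11.7 and 11.3 in Wnt4+/- ovaries; whether both losses differ in this gene was not tested. The log2 differences were -1.14 ± 0.23 (Gstm1), -0.90 ± 0.22 (Gstm2), -2.29 ± 0.57 (Gstm6) and -1.37 ± 0.21 (Gstm7), with 2 arrays a group. Gstm3 lay the other way, at 0.0405 and 0.172 in Wnt4-null ovaries, against 0.0296 to 0.0392 in Wnt4+/- ovaries (1.12 ± 0.60), which its dimmer probe set did not share (-0.11 ± 0.51). Of the 12 probe sets 5 were called lower and 0 higher (0.358% of all lower, 1.37% higher, 1.73% either way), with a median of -0.85, against 0.10 over all probe sets. Of all calls 79.3% were higher, and 68.4% after quantile normalization. Summed fetal ovary somatic markers, a list that holds Wnt4 itself, were at 33.5 to 35.3 in Wnt4-null ovaries, against 60.3 to 62.2 in Wnt4+/- ovaries. A Wnt4 probe set was at 0.3585 to 0.4144, against 1.008 to 1.308. The part of these markers in the Gstm values was not tested.

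At P0 the picture after loss of Wnt4 was another. Gstm1 was 8.70, 9.08 and 9.45 in Wnt4-null ovaries, overlapping the wild-type range of 8.70 to 12.9, and Gstm7 was 1.01, 0.839 and 0.895 in Wnt4-null ovaries, within the wild-type range of 0.820 to 1.17. Gstm6 was 0.197, 0.223 and 0.402 in Wnt4-null ovaries, against 2.32, 0.343 and 1.21 in wild-type ovaries, a log2 difference of -1.89 ± 0.46. It was the 1 of 12 probe sets called lower, 0 being called higher (7.06% of all lower, 5.6% higher, 12.7% either way). With the compared arrays alone 0 of 12 were called, and 5235 of all 45007 probe sets. The value ranged from -2.64 without wild-type replicate 2 to -1.28 without wild-type replicate 1. Gstm5, a further mu-class transferase, was 2.37, 2.52 and 2.33 in Wnt4-null ovaries, all above the wild-type 2.23, 1.35 and 2.05 (log2 difference 0.39 ± 0.16), whereas at E15 its Wnt4-null arrays lay below their controls (-0.37 ± 0.19). Of all probe sets, 13.7% lay higher without overlap at P0 (28.9% either way) and 15.7% lower at E15 (43.5% either way). Wnt4-null ovaries of P0 carried summed steroidogenic-cell markers (9 genes) of 34.8 to 55.6, against 15.5 to 16.4 in wild-type ovaries. The part of those cells was not tested.

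On the Wnt4-null background, loss of Foxl2 went with higher, not lower, signals. In Wnt4 Foxl2 double null ovaries Gstm1 was 14.3, 14.6 and 15.0, against 8.70, 9.08 and 9.45 in Wnt4-null ovaries. Gstm7 was 1.35, 2.02 and 1.73 in double null ovaries, against 1.01, 0.839 and 0.895 in Wnt4-null ovaries. Gstm6 was 0.814, 1.35 and 1.08 in double null ovaries, against 0.197, 0.223 and 0.402 in Wnt4-null ovaries. In none of these genes did the groups overlap, nor in Gstm2. Gstm2 was 16.5, 15.7 and 15.7 in double null ovaries, against 11.6, 10.6 and 11.5 in Wnt4-null ovaries. Of all probe sets, 11.3% lay higher without overlap (17.4% either way). The log2 differences were 0.69 ± 0.19 (Gstm1), 0.50 ± 0.18 (Gstm2), 1.98 ± 0.46 (Gstm6) and 0.87 ± 0.17 (Gstm7). Gstm5 (-0.07 ± 0.16) and Gstm4 (-0.07 ± 0.33) did not share this, and the dimmer Gstm7 probe set lay at only 0.21. Of 12 probe sets 2 were called higher and 0 lower (0.28% of all higher, 0.378% lower, 0.658% either way), and the median was 0.68, against 0.07 over all. With the compared arrays alone 5 of 12 were called, and with the replicate block 6 of 12. Of all 45007 probe sets, 365 and 698 were called in these fits, against 296 in the fit of all arrays. Nothing is read from these counts. Against Foxl2-null ovaries, the other parent genotype, double null ovaries were higher in Gstm1 (1.03 ± 0.19), Gstm7 (1.67 ± 0.17) and Gstm5 (0.47 ± 0.16), with 6 of 12 called higher and 0 lower (8.7% of all higher, 7.93% lower, 16.6% either way). The dimmer Gstm7 probe set lay at only 0.22 in this comparison. Summed Sertoli-cell markers were 50.7 to 54.5 in double null ovaries, against 22.9 to 24.9 in Wnt4-null ovaries and 10.5 to 12.7 in Foxl2-null ovaries. Fetal ovary somatic markers, which include Foxl2, were at 10.4 to 15.9 in double null ovaries, against 23.1 to 30.1 in Wnt4-null ovaries. The bright Foxl2 probe set in this sum was at 0.682 to 0.826, against 5.13 to 5.90, so the sum was lower in part by construction. The part of Sertoli cells or ovarian somatic cells in the Gstm values was not tested.

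On the Kit mutant background Gstm1, Gstm6 and Gstm7 lay lower without Foxl2. Gstm1 and Gstm7 did so on the wild-type background of P0 too, whereas the Gstm6 arrays overlapped there. Gstm1 was 7.26, 8.08 and 9.58 in Kit Foxl2 double mutant ovaries, against 13.4, 12.2 and 12.96 in Kit mutant ovaries. Gstm7 was 1.11, 1.25 and 1.37 in double mutant ovaries, against 2.80, 1.97 and 2.09 in Kit mutant ovaries. Gstm6 was 0.895, 0.883 and 0.977 in double mutant ovaries, against 4.53, 3.39 and 2.92 in Kit mutant ovaries. The groups overlapped in none of these genes, with log2 differences of -0.64 ± 0.19, -0.86 ± 0.17 and -1.94 ± 0.46. Of all probe sets, 5.61% lay lower without overlap (10.2% either way). Germ-cell markers (13 genes, summed) were at 1.51 to 2.47 in double mutant ovaries, against 3.16 to 30.8 in Kit mutant ovaries and 61.6 to 116.6 in wild-type ovaries. Fetal ovary somatic markers, a list that holds Foxl2 itself, were at 60.9 to 63.5 in double mutant ovaries, against 78.9 to 93.95 in Kit mutant ovaries. The bright Foxl2 probe set in this sum was at 3.56 to 7.64, against 19.5 to 32.6, so the sum was lower in part by construction. The part of germ cells or ovarian somatic cells in the Gstm values was not tested. Other members had opposite signs on the Kit mutant and wild-type backgrounds of P0, namely Gstm3 (-0.69 and 0.88; dimmer probe set 0.15 and -0.59), Gstm4 (0.19 and -0.24) and the dimmer Gstm7 probe set (0.09 and -0.28). Of 12 probe sets 3 were called lower and 0 higher (0.555% of all lower, 0.256% higher, 0.811% either way), and the median was -0.64, against -0.02 over all. With the compared arrays alone 1 of 12 was called, and with the replicate block 0 of 12. Of all 45007 probe sets, 33 and 2 were called in these fits, against 365 in the fit of all arrays. Nothing is read from these counts.

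**Figure D2:**
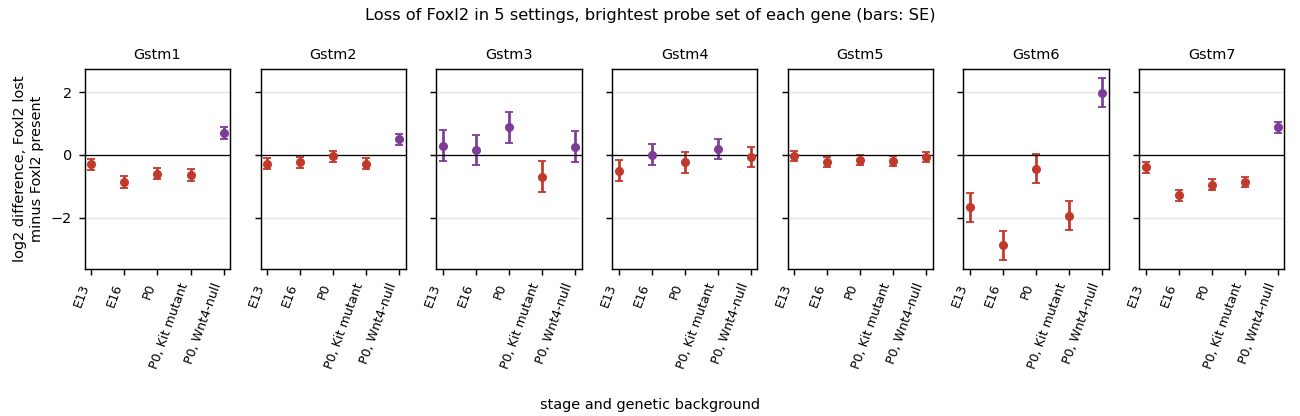
Log2 difference between ovaries without Foxl2 and their reference with at least 1 Foxl2 allele, for the brightest probe set of each Gstm gene, at 3 stages and on the Kit mutant and Wnt4-null backgrounds of P0 (points, with SE bars; red below 0, purple above). Gstm1, Gstm6 and Gstm7 lie below 0 in 4 settings and above 0 in the Wnt4-null background, at 0.69, 1.98 and 0.87.

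In testes of E13, Gstm1, Gstm6 and Gstm7 were all higher than in control ovaries. Gstm1 was 10.5, 11.3 and 9.33 in testes, against 4.51, 4.60 and 5.30 in control ovaries. Gstm7 was 5.92, 6.32 and 4.84 in testes, against 1.84, 2.06 and 2.23 in control ovaries. Gstm6 was 2.01, 1.45 and 1.25 in testes, against 0.111, 0.497 and 0.248 in control ovaries. None of the 3 overlapped, and all rose, by log2 1.11 ± 0.19 in Gstm1 (limma adjusted p = 6.22e-05), 1.47 ± 0.17 in Gstm7 (adjusted p = 5.79e-08) and 2.62 ± 0.46 in Gstm6 (adjusted p = 0.000142). The remaining 3 Gstm1 probe sets also rose, by 1.12 to 1.22, which made 6 of 12 called higher and 0 lower, beside 2.97% and 3.23% of all probe sets (6.2% either way). The dimmer Gstm7 probe set was not among those called. Gstm2 lay above in every testis array without passing (0.50 ± 0.18, adjusted p = 0.0924), and Gstm4 lay below in every testis array, at 0.0734, 0.0486 and 0.0888 in testes, against 0.162, 0.120 and 0.166 in ovaries (-1.01 ± 0.33, adjusted p = 0.0594). Gstm2 passed after quantile normalization (adjusted p = 0.0301) and Gstm4 with 1 probe set per gene (adjusted p = 0.0443). Of all probe sets, 12.8% lay above in every testis array and 12.4% below (25.2% either way). The median over the 12 was 0.80, against 0.02 over all. Sertoli-cell markers summed to 50.2 to 62.0 in these testes, against 7.30 to 9.63 in ovaries, and steroidogenic-cell markers to 54.3 to 119.6, against 11.5 to 13.2.

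At P0, with testes from Wnt4-null mice, Gstm1 was 18.6, 13.02 and 16.5 in testes, against 11.5, 8.70 and 12.9 in wild-type ovaries, and Gstm7 was 2.28, 2.20 and 2.29 in testes, against 1.09, 0.820 and 1.17 in wild-type ovaries. Gstm1 rose by log2 0.55 ± 0.19 (limma adjusted p = 0.0271) and Gstm7 by 1.14 ± 0.17 (adjusted p = 2.53e-06). Gstm6, at 2.69, 1.83 and 2.59 in testes, overlapped the ovary arrays and passed narrowly (1.23 ± 0.46, adjusted p = 0.0467). Both of these weaker calls were lost without wild-type replicate 2, at 0.385 (adjusted p = 0.193) for Gstm1 and 0.478 (adjusted p = 0.499) for Gstm6. That of Gstm1 was also lost without testis replicate 1 or 3, without trend (adjusted p = 0.0527) and after quantile normalization (0.47, adjusted p = 0.0505). The call of Gstm6 was the less stable: it was also lost without testis replicate 1, 2 or 3 (adjusted p = 0.123, 0.0507 and 0.118), without ovary replicate 3 (0.0585), and with a pseudocount of 0.1% (0.0608), quantile normalization (0.0613), no trend (0.0646), the compared arrays alone (0.121) and the replicate block (0.0544). Gstm4 fell, with 0.0929, 0.0843 and 0.101 in testes, against 0.210, 0.233 and 0.240 in ovaries (-1.21 ± 0.33, adjusted p = 0.00566). In all 4 of 12 probe sets were called higher and 1 lower, where 13.4% and 12% of all probe sets were (25.3% either way). The test of whether the sex difference itself changed between E13 and P0, added after the values were seen, called 0 of 12 (2.63% of all higher, 3.99% lower, 6.62% either way; 7 of 12 at an unadjusted p under 0.05), with -0.56 ± 0.26 for Gstm1, -0.33 ± 0.24 for Gstm7 and -1.39 ± 0.65 for Gstm6. Testis and double null ovary, both without Wnt4, were also compared at P0, and 0 of 12 were called (0.938% of all higher, 0.642% lower, 1.58% either way; 3 of 12 at an unadjusted p under 0.05). Gstm1 differed by -0.12 ± 0.19, with overlapping arrays, whereas every double null array lay below every testis array in Gstm7 (-0.42 ± 0.17, adjusted p = 0.22) and Gstm6 (-1.14 ± 0.46, adjusted p = 0.237). Of all probe sets, 11.1% lay lower in double null ovaries without overlap (19.3% either way). In a fit of the testis and double null arrays of P0 alone, Gstm6 passed (limma adjusted p = 0.0461).

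Kit mutant ovaries differed from wild-type ovaries at P0 in the number of germ cells and in 1 Foxl2 allele, which cannot be told apart. Other markers were also higher without overlap, fetal ovary somatic markers at 78.9 to 93.95 in Kit mutant ovaries, against 50.4 to 64.15 in wild-type ovaries, endothelial markers (8 genes) at 9.92 to 12.4, against 6.45 to 6.90, and Sertoli-cell markers at 14.2 to 17.3, against 10.01 to 12.01. Their part in the Gstm values was not tested. Gstm7 was 2.80, 1.97 and 2.09 in Kit mutant ovaries, against 1.09, 0.820 and 1.17 in wild-type ovaries, and rose by 1.15 ± 0.17 (limma adjusted p = 3.06e-06). Gstm6 was 4.53, 3.39 and 2.92 in Kit mutant ovaries, against 2.32, 0.343 and 1.21 in wild-type ovaries (1.83 ± 0.46, adjusted p = 0.00321), and Gstm5 was 2.72, 2.60 and 2.70, against 2.23, 1.35 and 2.05 (0.54 ± 0.16, adjusted p = 0.0109). The dimmest Gstm1 probe set rose by 0.95 ± 0.30 (adjusted p = 0.0196), whereas the brightest did not pass (0.24 ± 0.19, adjusted p = 0.345), so that the probe sets of Gstm1 disagreed. In all 4 of 12 were called higher and 0 lower, beside 16.2% and 9.87% of all probe sets (26.1% either way). The dimmer Gstm7 probe set was not among those called. Without wild-type replicate 2 the calls of Gstm6 (1.08, adjusted p = 0.0863) and Gstm5 (0.320, adjusted p = 0.166) were lost. That of Gstm5 was also lost with the replicate block (adjusted p = 0.128) and with the compared arrays alone (adjusted p = 0.104). The median over all probe sets was 0.28 here, and 62.2% of all calls were higher, against 0.07 and 45.5% after quantile normalization, under which Gstm7 stayed at 1.11.

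During ovary development the members went different ways. Between E13 and E16, Gstm1 was 4.51, 4.60 and 5.30 in control ovaries of E13, and 7.39, 7.51 and 9.01 in wild-type ovaries of E16, a rise of 0.73 ± 0.19 (limma adjusted p = 0.0111; 0.0802 without E16 replicate 3). Gstm6 rose by 2.44 ± 0.46 (limma adjusted p = 0.000678), without overlap. Of all probe sets, 22.3% lay higher at E16 without overlap (30.6% either way). Gstm3 fell. Its signals at E13 were 0.751, 1.10 and 2.56 in ovaries, and 0.0400, 0.0253 and 0.0282 at E16, a log2 difference of -4.99 ± 0.49 (adjusted p = 3.47e-08), and the dimmer probe set changed likewise (-4.28 ± 0.42). At E13, Gstm3 was also high in testes, at 0.534, 1.36 and 1.47, and in Foxl2-null ovaries, at 2.32, 1.12 and 1.496, while it lay at 0.172 or lower in every array of the later stages. Summed erythroid markers were at 26.3 to 32.3 in ovaries of E13 and 1.45 to 8.10 in wild-type ovaries of E16. They were at 29.6 to 40.7 in testes of E13 and 0.856 to 0.995 in testes of P0. At E16 they lay at 8.48 to 31.8 in Foxl2-null and 2.78 to 31.7 in Foxl2+/- ovaries, where Gstm3 reached only 0.041 and 0.0863. Their part in the Gstm3 values was not tested. In all 5 of 12 were called higher, of which 4 were Gstm1 probe sets, and 2 lower, beside 4.7% and 2.81% of all probe sets (7.51% either way). Of all calls 62.6% were higher, and 46% after quantile normalization. Genotype differed too, since the label of the E13 controls gives Foxl2+/-.

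Between E16 and P0, Gstm7 fell to 1.09, 0.820 and 1.17 in wild-type ovaries of P0, against 3.05, 2.52 and 2.70 at E16 (-1.43 ± 0.17, limma adjusted p = 1.5e-07), and its dimmer probe set fell too (-0.75 ± 0.27, adjusted p = 0.0336). Gstm1 lay at 0.45 ± 0.19 (adjusted p = 0.0601) and passed with the replicate block (adjusted p = 0.0208), with the compared arrays alone (0.0404) and without P0 replicate 2 (0.614, adjusted p = 0.0278). Gstm4 lay at 0.79 ± 0.33 (adjusted p = 0.0665) and passed after quantile normalization (1.251, adjusted p = 0.02) and with the compared arrays alone (0.0499). Gstm5 passed narrowly (-0.41 ± 0.16, adjusted p = 0.0493), and without wild-type P0 replicate 2 it lay at -0.186 (adjusted p = 0.42). Its call was also lost without E16 replicate 1 or 2 (adjusted p = 0.202 and 0.092) and after quantile normalization (0.0559). The same held without trend (adjusted p = 0.0668), with the compared arrays alone (0.141) and with the replicate block (0.107). The dimmer Gstm3 probe set was called higher (1.22 ± 0.42), at signals of 0.0203, 0.00596 and 0.0162 in P0 ovaries, against 6.34e-05 or lower at E16, values that lie around or below the pseudocount, and the brighter one did not follow (-0.09 ± 0.49). In all 1 of 12 was called higher and 3 lower, beside 7.59% and 22.1% of all probe sets (29.7% either way). The median over all probe sets was -0.36, and 25.6% of all calls were higher, against -0.03 and 50.7% after quantile normalization, under which Gstm7 was at -1.40.

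In testes Gstm7 and Gstm3 were lower and Gstm1 was higher at P0 than at E13. By the study's methods only the P0 testes were Wnt4-null, so stage and loss of Wnt4 cannot be told apart here. Gstm7 was 2.28, 2.20 and 2.29 in testes of P0, against 5.92, 6.32 and 4.84 at E13 (-1.32 ± 0.17, limma adjusted p = 3.83e-07). Gstm1 was 18.6, 13.02 and 16.5 at P0, against 10.5, 11.3 and 9.33 at E13 (0.62 ± 0.19, adjusted p = 0.015), and Gstm3 was at 0.0788, 0.0513 and 0.105 at P0, against 0.534, 1.36 and 1.47 at E13 (-3.59 ± 0.49, adjusted p = 1.42e-06). Gstm5 rose by 0.46 ± 0.16 (adjusted p = 0.0386). In all 3 of 12 were called higher and 3 lower, beside 7.79% and 11.4% of all probe sets (19.2% either way). The call of Gstm1 was lost without testis E13 replicate 3 (0.544, adjusted p = 0.0769) or testis P0 replicate 1 (0.504, adjusted p = 0.0908). That of Gstm5 was lost without any one of 5 arrays and also without trend (adjusted p = 0.0582).

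**Figure D3:**
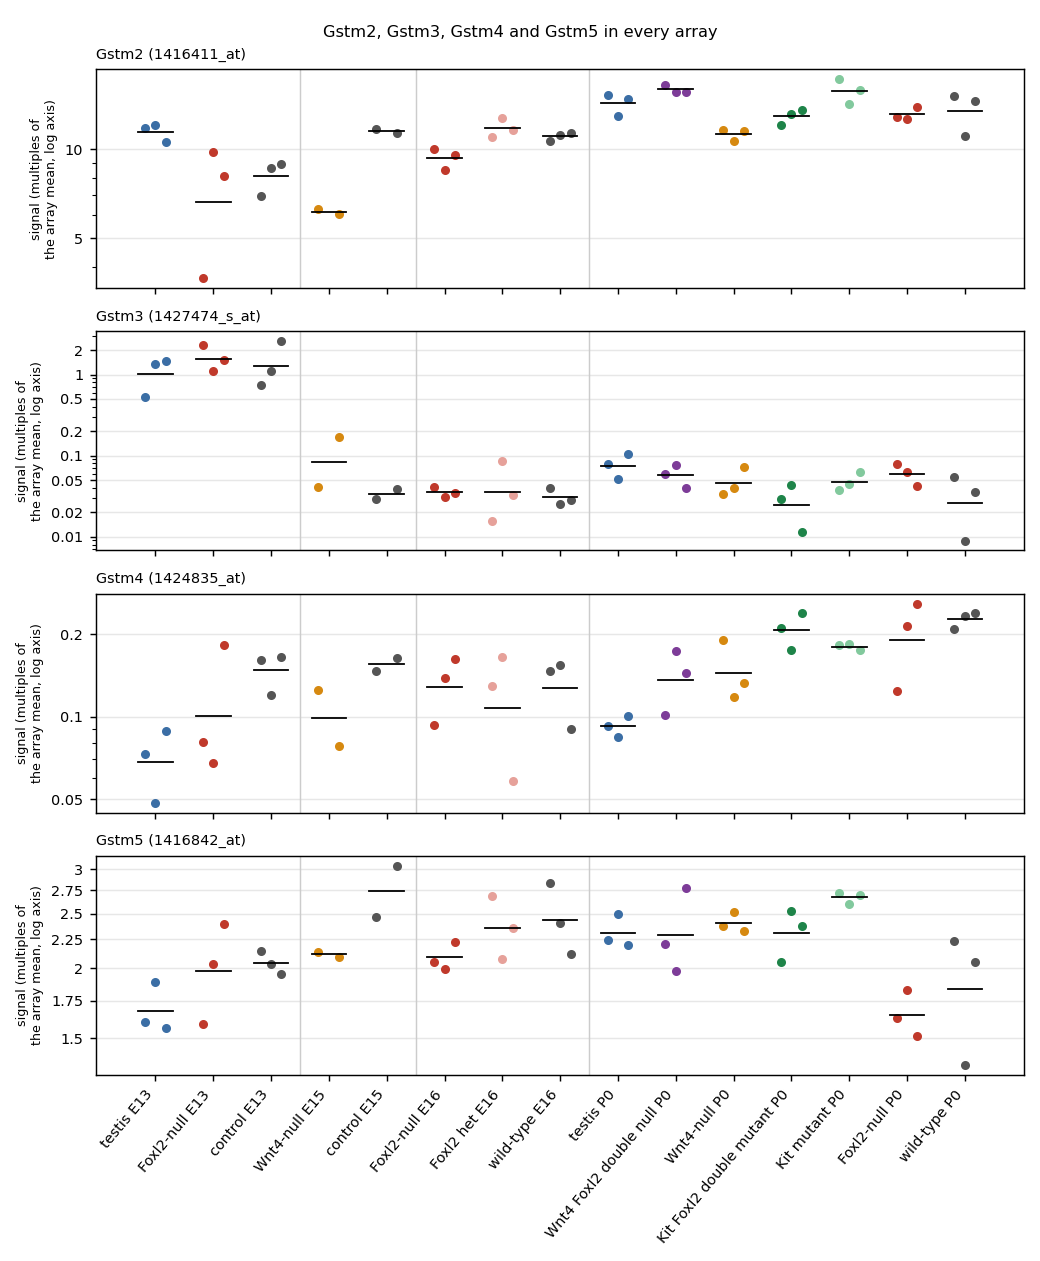
Signal of Gstm2, Gstm3, Gstm4 and Gstm5 in each of the 43 arrays (points, multiples of the mean shared by all arrays, log axes), by group, with the mean of log2 values as a bar. Gstm3 lies at 0.534 or higher in the 9 arrays of E13 and at 0.172 or lower in all others, and Gstm4 lies at 0.0843 to 0.101 in P0 testes, below the 0.210 to 0.240 of P0 wild-type ovaries.

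The groups were ordered by their means in each gene. For Gstm3 the 3 groups of E13 stood apart from the rest by a gap of 3.43 on the log2 scale. For Gstm1 the order began with P0 testis, double null and Kit mutant ovaries and ended with Foxl2-null ovaries of E16 and E13 and Wnt4-null ovaries of E15, and in 13 of 14 steps the arrays of neighbouring groups overlapped. For Gstm6 it began with Kit mutant ovaries, set apart from the next group, and ended with Foxl2-null ovaries of E13, with overlap in 12 of 14 steps. For Gstm7 it began with E13 testis, set apart from the next group by 1.04, and ended with Foxl2-null ovaries of P0, with overlap in 11 of 14 steps. Foxl2-null ovaries of P0 were the lowest group in Gstm7 but the tenth of 15 in Gstm1.

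**Figure D4:**
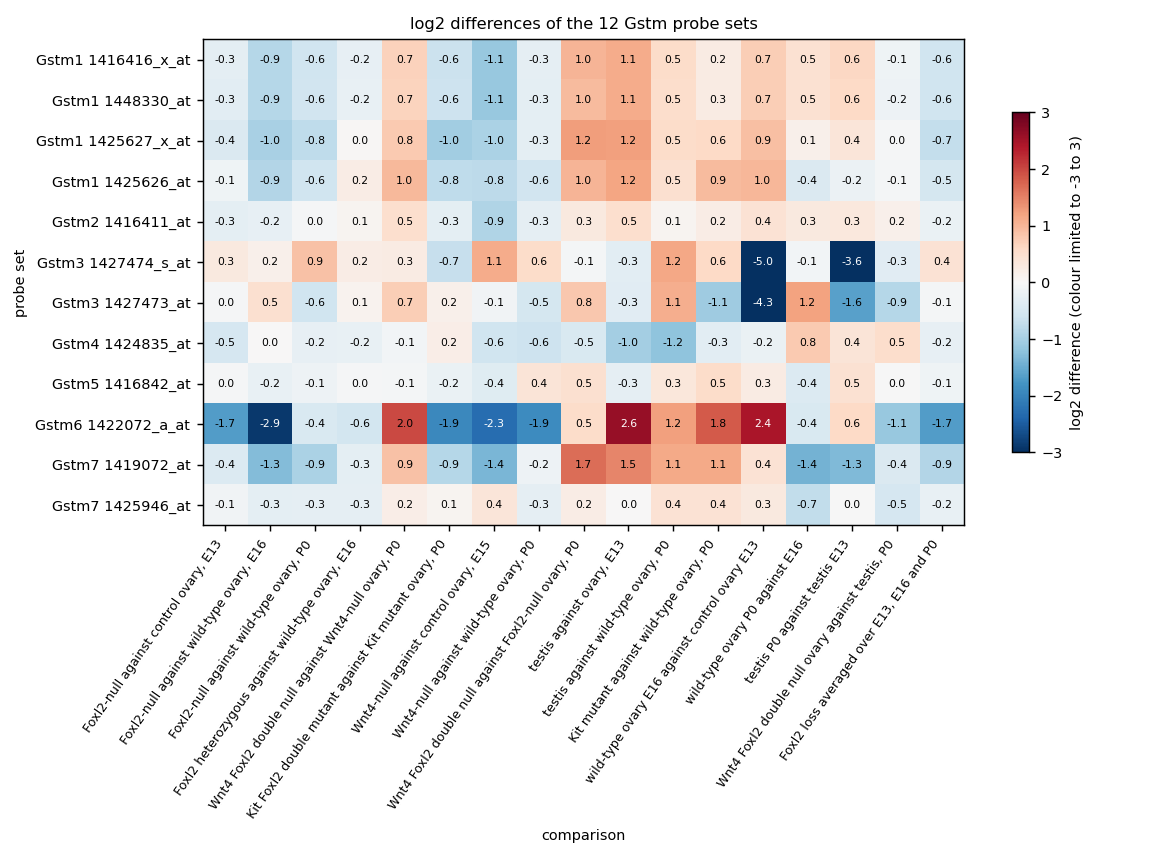
Log2 differences of the 12 Gstm probe sets (rows) in 17 comparisons (columns); red is higher and blue lower in the group named first, with colour limited to -3 to 3. Gstm1, Gstm6 and the brighter Gstm7 probe set share their sign in the columns of Foxl2 loss, whereas Gstm3 stands out at -4.99 between E13 and E16 in the ovary.

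Genes outside the family were ranked by the correlation of their 15 group means with those of each gene, among 10723 genes above the median signal. Closest to Gstm1 were Aldh1a1 (r = 0.879), a retinaldehyde dehydrogenase, Acsl4 (0.851), Kazald1 (0.849), Rnf144a (0.843), Ank2 (0.834) and Clu (0.833), which encodes the secreted chaperone clusterin. Closest to Gstm6 were Prss53 (0.876), Gm20199 (0.858), 9630050P21Rik (0.850), Wdr26 (0.824), 2610035D17Rik (0.821) and Ubn2 (0.818), and closest to Gstm7 were Sgk3 (0.807), a protein kinase, AA386476 (0.804), 4930578G10Rik (0.793), Bex2 (0.785), Cxxc4 (0.779) and Dock5 (0.759). Over the 43 single arrays the ranks shifted for each gene. For Gstm1, Clu, Kazald1 and Aldh1a1 held places 1 to 3, whereas Acsl4 was at 21, Rnf144a at 35 and Ank2 at 113. For Gstm6, Prss53 was at 131, the other 5 genes held places between 3 and 15, and the Sertoli-cell marker Mro led (0.779). For Gstm7, Sgk3 and Bex2 held places 1 and 2, and AA386476 was at 95.

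The other genes of glutathione metabolism were looked at with the same fit. Of 36 measured genes of this list, beside 2.06%, 0.407% and 0.604% of all probe sets, 0 were called at E13, 1 at E16 (Gpx1, a glutathione peroxidase, 0.89 ± 0.21) and 1 at P0 (Gsta4, an alpha-class transferase, -0.87 ± 0.16), and the medians were 0.10, 0.14 and -0.16, against 0.01, -0.07 and -0.03 over all probe sets. Of 15 Nrf2 regulators and targets 0 were called at any of the 3 stages. In Wnt4-null ovaries 1 of the 36 was called higher at E15, Gsta2 (2.58 ± 0.46), beside 1.37% of all probe sets called higher, and nothing is read from this count. At P0 6 were called higher and 3 lower (5.6% and 7.06% of all), among them Gsta2 (4.08 ± 0.38), Gpx3 (1.65 ± 0.20) and Gclm, a subunit of the enzyme that starts glutathione synthesis (-1.38 ± 0.24). In testes of E13 5 rose and 1 fell (2.97% and 3.23% of all), with alpha-class Gsta2 (2.70 ± 0.38), Gsta3 (1.32 ± 0.27) and Gsta4 (0.96 ± 0.16) among those that rose (limma adjusted p = 2.93e-06, 0.00123 and 6.16e-05). In double null ovaries Gsta3 (1.12 ± 0.27) and Gsta4 (0.66 ± 0.16) lay higher than in Wnt4-null ovaries. The sum over all 36 genes did not share this, at 61.1 to 71.15 in double null ovaries, against 62.4 to 69.3 in Wnt4-null ovaries. In Kit mutant ovaries, where Gstm7 rose, Gsta3 (-1.27 ± 0.27, adjusted p = 0.000641), Gsta4 (-0.72 ± 0.16, adjusted p = 0.000927) and Gclm (-2.31 ± 0.24, adjusted p = 5.26e-09) fell, and 7 of 36 rose and 9 fell (16.2% and 9.87% of all).

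Protein-coding genes on either side of the cluster were looked at with the same fit. The 6 measured neighbours (Ahcyl1, Csf1, Eps8l3, Ampd2, Gm12500 and Gnat2) lay between -0.86 and 0.88 after loss of Foxl2 at the 3 stages, and 0 of 6 were called, beside 2.06%, 0.407% and 0.604% of all probe sets, so that nothing is read from this count.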

How the data were processed

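Whole gonads without adnexa, 1 mouse per array, were hybridised to Affymetrix MOE430 arrays after single-round amplification. The intensities as deposited had been summarised by the authors with plier in R and scaled to 1 global mean; the submitters' processing notes also name GCOS 1.3, whose role is not given in the sources used here, nor is a genome build. Of 45071 probe sets 64 controls were left out. Signals are intensities divided by the common mean (15970000). log2 values were taken after adding 159700 (1% of that mean) and fitted over all 43 arrays by group with limma 3.58.1 (R 4.3.3; lmFit, eBayes with trend), with Benjamini-Hochberg adjustment over 45007 probe sets, in 18 comparisons, of which 8 are tested and 10 described. Fold changes of dim probe sets are understated by the added constant. The number of arrays limits the precision; where mice are not stated to be of separate litters, p-values measure only the spread between these samples. Probe sets carry 1 gene symbol in 34927 cases, several in 930 and none in 9150. In a test on simulated data for testis against ovary at E13 (45007 probe sets), 40 of 100 changes of log2 1 and 90 of 100 of log2 2 were called.

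Members, gene lists and comparisons were chosen with earlier results of these data known. All 7 genes are named, and outside the family the genes with the 6 highest correlations and list members past the threshold. The sample titles number the replicates but do not say that equal numbers are paired. Between Foxl2-null and control ovaries at E13, deviations of same-numbered arrays correlated at 0.132 to 0.158, and other group pairs included values under 0.1. Each of the 3 null arrays of E13 correlated best with the control array of the same number. Between Foxl2+/- and wild-type ovaries at E16 the same-numbered arrays correlated at -0.066 to 0.196, with 2 of 3 matched best. A pairing at E13 is therefore possible but not established. The study's program Focus and its results were not used here. Alternatives were the pseudocount, quantile normalization, a filter on dim probe sets, no trend, 1 probe set per gene, fits of the compared arrays alone, a replicate block and leaving out each array; the comparison of sex differences between stages was added after seeing the data.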

Additional observations from a re-analysis of the deposited data

Results flagged for a closer look

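In several genes every array moved one way under one contrast and the opposite way under the same contrast elsewhere. These differences between contrasts were not tested. In each of these contrasts alone, 5.61% to 15.7% of all probe sets lay in the direction concerned without overlap. Loss of Foxl2 went with higher signals on the Wnt4-null background and lower signals on the wild-type background at P0, by 1.289 on the log2 scale apart in Gstm1 and by 1.82 in Gstm7. Against loss of Foxl2 on the Kit mutant background, the distance was 1.326 in Gstm1, 0.787 in Gstm2, 3.921 in Gstm6 and 1.736 in Gstm7. In Gstm5 the difference after loss of Wnt4 was 0.39 at P0 and -0.371 at E15, a distance of 0.761, between stages that also differ in strain mixture and in control genotype.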

How the results depend on the processing

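Of 144 summary values under alternatives that kept every array, 133 were labelled unchanged, as were 962 of 990 values of single genes. For counts this means a change of at most 1.5 times. In tested comparisons a single gene had to keep its side of the threshold, whereas an uncalled value could change sign. In described comparisons it means a shift under the pooled SD within groups. Reversals were 0, which counts could not show by construction. The median difference in Kit Foxl2 double mutant ovaries was -0.485 with a pseudocount of 5%, and that of Foxl2-null ovaries at E16 was -0.862 over probe sets above the median signal and -0.242 with 1 probe set per gene. With 1 probe set per gene 3 were called between E13 and E16 and 2 between E16 and P0 in the ovary, by construction from fewer probe sets. In testes of P0 3 were called without trend and 3 with the compared arrays alone; in Kit mutant ovaries 2 with those arrays alone and 2 with the replicate block, which pairs arrays by number; between double null ovaries and testes 1 with those arrays alone; for the sex difference at P0 minus E13 1 after quantile normalization. Of all 45007 probe sets, the compared arrays alone called 9026 in testes of P0, 6782 in Kit mutant ovaries and 299 between double null ovaries and testes. The replicate block called 4757 in Kit mutant ovaries, and quantile normalization called 2687 for P0 minus E13. The cause was not tested.

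Leaving out 1 array gave 5 to 6 calls in testes of E13, 2 to 8 in testes of P0 (2 without testis replicate 1 or 3 or ovary replicate 2, 8 without ovary replicate 1), 2 to 5 in Kit mutant ovaries (2 without wild-type replicate 2), 3 to 7 between E13 and E16 (3 without E16 replicate 3), 1 to 4 between E16 and P0 (1 without E16 replicate 2), 3 to 6 between testes, 0 to 0 between double null ovaries and testes, and 0 to 1 for P0 minus E13. The share of all probe sets called was not taken for these fits, and nothing is read from their counts. The median after loss of Foxl2 at E13 ranged from -0.501 to -0.036 (-0.036 without null replicate 1). Over all probe sets, calls after loss of Foxl2 were 928 at E13, 183 at E16 and 272 at P0, against 192, 386 and 18 with the replicate block and 3, 360 and 95 with the compared arrays alone. Quantile normalization moved the median of all probe sets by 0.332 (E16 to P0), -0.221 (E13 to E16), -0.214 (Kit), -0.14 (testis P0) and -0.119 (Wnt4 E15). Signals under the pseudocount, as in the dimmer Gstm3 probe set, limit what its differences show.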
